A study of Homo sapiens with 9 samples.

Results

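Isolated H3K4me3 peaks are H3K4me3 CUT&Tag peaks that lay far from every other peak of the same list. They were chosen by position: a peak on chromosomes 1 to 22 was taken when the gap to each neighbouring H3K4me3 peak of its chromosome was above 300 kb. Of 16390 H3K4me3 peaks on these chromosomes, 627 (3.83%) met this, and 15763 remained for comparison. The cells were A549, an established human lung adenocarcinoma line. In CUT&Tag an antibody guides a transposase to its target in permeabilised cells, and the cut fragments are sequenced.

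The series has 3 groups of 3 replicates. The HA-BAZ2B group is A549 with an HA tag inserted at the 5′ end of the cells' own BAZ2B gene, profiled with an anti-HA antibody. The WT group is untagged A549 with the same antibody, which has no HA tag to bind and so shows the background of the assay. The H3K4me3 group is the tagged cells profiled for H3K4me3. The labels do not say whether the tagged line is a single clone or whether replicates are separate cultures. The treatment protocol mentions an siRNA transfection without naming the libraries that had it. In the labels of H3K4me3 replicates 2 and 3 the antibody's name has another last digit, and here the sample titles decided the group.

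H3K4me3, the trimethylated lysine 4 of histone H3, marks nucleosomes around the starts of active and poised genes. Most promoters of the genome lie in gene-rich stretches, where such peaks follow each other closely, and a promoter in a gene-poor stretch stands alone. BAZ2B carries a bromodomain, which reads acetylated histones, and pairs with ISWI ATPases in complexes that slide nucleosomes along DNA. The series title places BAZ2-dependent remodeling in the suppression of G-quadruplex (G4) DNA, a four-stranded structure of guanine-rich sequence that is common at promoters. The comparison made here asks whether an H3K4me3 peak far from other listed ones carried an anti-HA peak as often as one among neighbours. Whether isolated peaks lie at promoters was not tested.

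Anti-HA peaks were found less often on isolated than on other H3K4me3 peaks, in tagged and in untagged cells. An HA-BAZ2B peak overlapped 138 of the 627 isolated peaks by at least 1 bp (22.01%, exact 95% binomial interval 18.8 to 25.5%), against 6391 of the 15763 remaining ones (40.5%, 39.8 to 41.3%) and 39.8% of all 16390. A WT peak overlapped 46 isolated peaks (7.34%, 5.42 to 9.66%), against 2131 remaining ones (13.5%, 13.0 to 14.1%) and 13.3% of all. Neither anti-HA list had a peak on 477 isolated peaks (76.1%), and on 57.7% of the others. Both lists did on 34 isolated peaks (5.42%, against 11.7% of the others) and HA-BAZ2B alone on 104 (16.6%, against 28.8%). WT alone was on 12 (1.91%, 0.993 to 3.32%), against 1.79% of the others (1.59 to 2.01%), so that class was not the lower one.

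The difference held between peaks of like width. With the H3K4me3 peaks in 10 groups by width, the remaining peaks weighted to the widths of the isolated ones would carry HA-BAZ2B in 38.3% of cases and WT in 13.5%. The Mantel-Haenszel odds ratio over the width groups, isolated against remaining, was 0.398 for HA-BAZ2B (95% interval 0.324 to 0.489; Cochran-Mantel-Haenszel p = 1.30e-19, n = 627 isolated peaks) and 0.501 for WT (0.369 to 0.680; p = 6.06e-06). The units of these tests are peaks, not cultures. Each deposited list is a single list per group with no value per replicate, so no difference has a replicate error, and intervals cover counting error over peaks only.

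The reduction was not shown to be particular to the tagged cells. The odds ratio for HA-BAZ2B was 0.798 times that for WT (95% interval 0.587 to 1.08; logistic fit over both lists in width groups with errors clustered by peak, p = 0.149, n = 16390 peaks), a test added after the values had been seen. Of the isolated peaks with HA-BAZ2B, 34 of 138 also carried a WT peak (24.6%, 17.7 to 32.7%), against 28.9% of the remaining ones (27.8 to 30.1%) and 28.8% of all H3K4me3 peaks with HA-BAZ2B. The odds ratio over the width groups was 0.757 (0.510 to 1.12; Cochran-Mantel-Haenszel p = 0.165, n = 138 isolated peaks). Conversely, 34 of the 46 isolated peaks with WT carried HA-BAZ2B (73.9%, 58.9 to 85.7%), against 1849 of 2131 remaining ones (86.8%, 85.3 to 88.2%), with no test made.

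**Figure D1:**
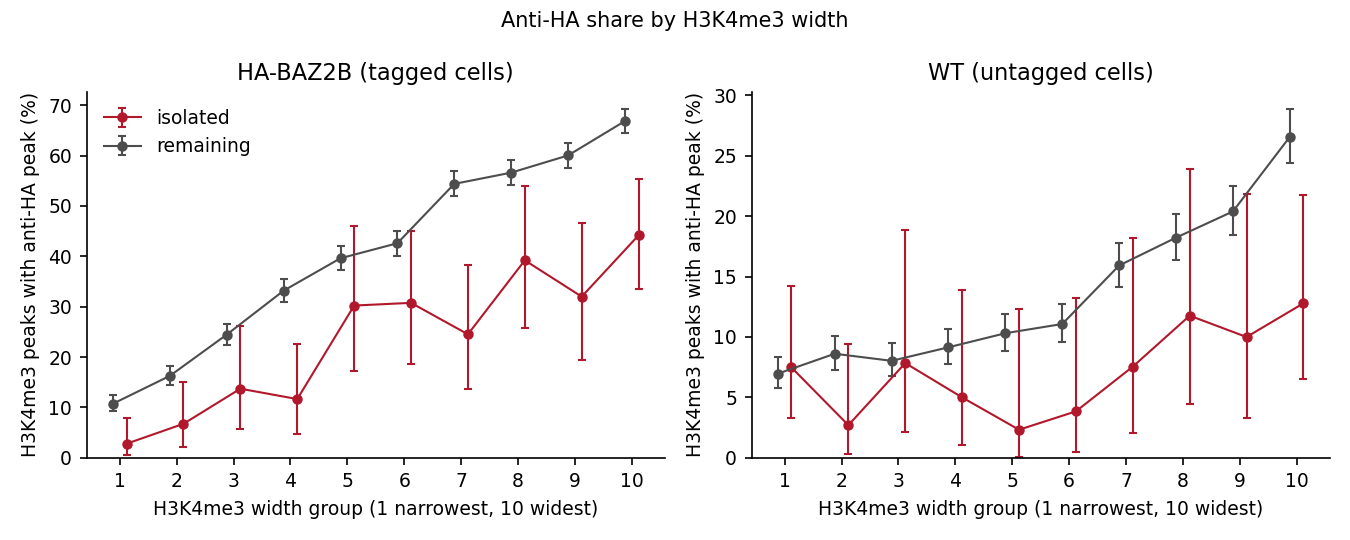
Share of H3K4me3 peaks that carry an HA-BAZ2B peak (left) or a WT peak (right), in percent, by width group from the narrowest (1) to the widest (10), for isolated and remaining peaks, with exact 95% binomial intervals. The isolated peaks lie lower in 10 of 10 width groups for HA-BAZ2B and in 9 of 10 for WT.

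Wide isolated peaks carried HA-BAZ2B far more often than narrow ones, as the plot of shares by width shows, but stayed below other peaks of their width. In the narrowest group, of 299 to 549 bp, 3 of 107 isolated peaks had an HA-BAZ2B peak (2.80%, 0.582 to 7.98%), against 10.7% of the remaining ones. In the widest group, of 1794 to 3988 bp, 38 of 86 did (44.2%, 33.5 to 55.3%), against 66.9%. The WT share of isolated peaks was 7.48% in the narrowest group and 12.8% in the widest, against 6.97% and 26.6% of the remaining peaks.

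The values of the H3K4me3 peaks themselves come from the list that chose the members and are given as a description. The width of isolated peaks had a median of 1065 bp (quartiles 679.5 and 1469.5 bp), and that of remaining peaks 1137 bp (815 and 1458 bp). The median fold enrichment, the ratio over background that the authors' peak caller gave, was 8.76 (6.75 to 10.9) against 9.07 (7.08 to 11.1). The −log10 q value, the caller's significance of the peak, lay further apart, with a median of 29.6 (14.7 to 45.2) against 42.8 (22.7 to 58.4). Isolated peaks thus had nearly the width and fold enrichment of the others at a lower significance: 45.3% of them fell in the 3 lowest of 10 groups by −log10 q, and 12.4% in the 3 highest.

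This lower significance moved with the anti-HA result. With the peaks in strata of width and −log10 q together, the odds ratio was 0.541 for HA-BAZ2B (0.435 to 0.673; Cochran-Mantel-Haenszel p = 3.55e-08, n = 627 isolated peaks) and 0.646 for WT (0.471 to 0.885; p = 0.00655), and the share of remaining peaks with HA-BAZ2B, weighted to the isolated ones, was 31.4%. In a logistic fit across all peaks with width, fold enrichment and −log10 q as terms, the odds ratios were 0.599 (0.484 to 0.742; p = 2.54e-06, n = 627) and 0.695 (0.510 to 0.949; p = 0.0219). The difference was thus smaller at matched significance and still past the threshold of 0.05.

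**Figure D2:**
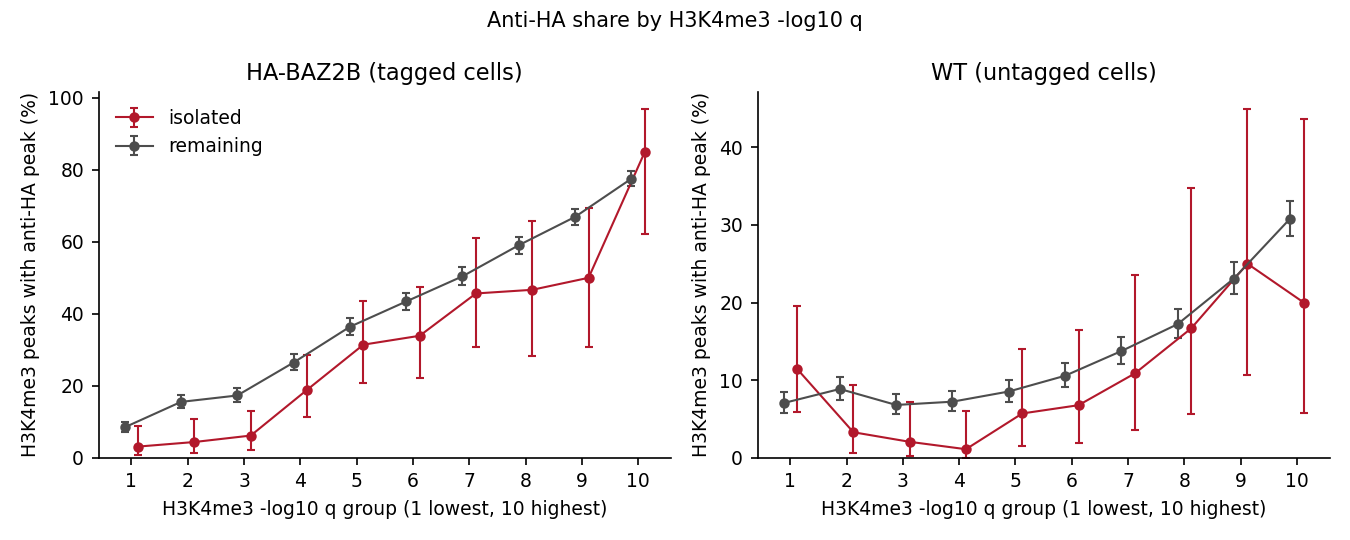
Percent of H3K4me3 peaks overlapped by HA-BAZ2B (left) or WT (right), over 10 groups of increasing H3K4me3 −log10 q, for isolated and remaining peaks, with exact 95% binomial intervals. For HA-BAZ2B the isolated peaks lie lower in 9 of 10 groups and higher in the tenth, which holds 20 isolated peaks.

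At the highest significance, the HA-BAZ2B share of isolated peaks was not the lower one, and the intervals overlapped. In the group with a −log10 q of 70.7 or more, 17 of 20 isolated peaks had an HA-BAZ2B peak (85%, 62.1 to 96.8%), against 77.5% of the remaining ones (75.4 to 79.5%). In the lowest group, up to 10.2, 3 of 96 did (3.13%, 0.649 to 8.86%), against 8.47% (7.13 to 9.97%). The WT share in that lowest group was 11.5% of isolated (5.86 to 19.6%) and 7.05% of remaining peaks (5.82 to 8.44%), so here the isolated share was the higher one and the intervals overlapped.

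**Figure D3:**
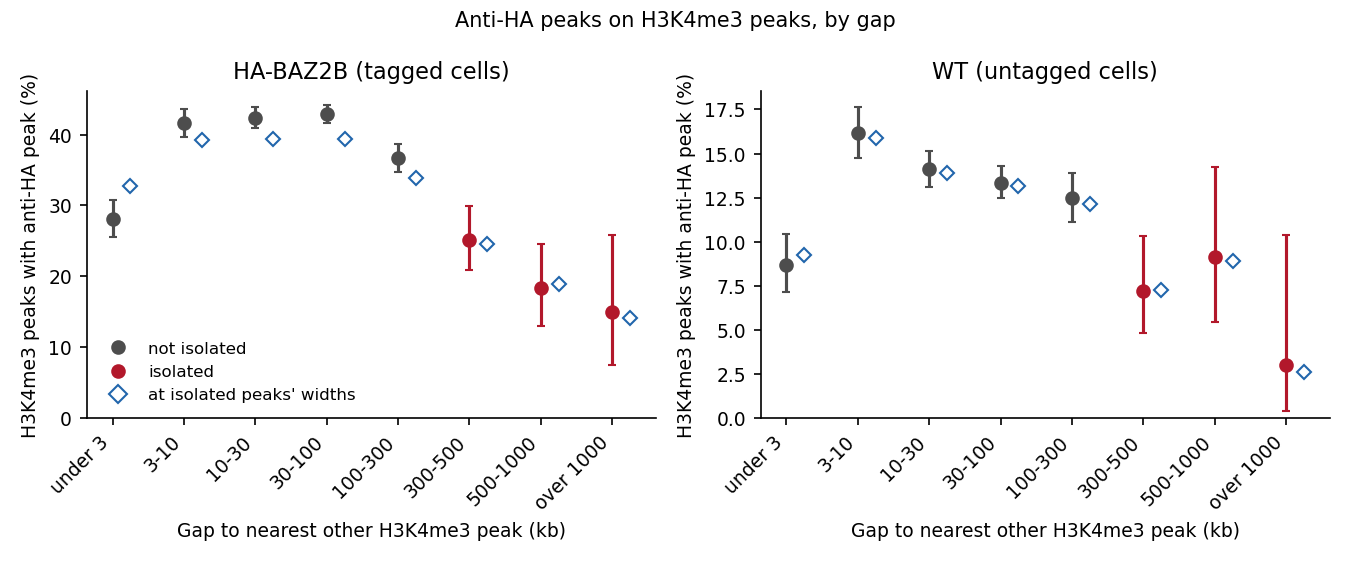
Percent of H3K4me3 peaks overlapped by HA-BAZ2B (left) or WT (right), by the gap to the nearest other H3K4me3 peak in kb, with exact 95% binomial intervals. Open diamonds give the share weighted to the widths of the isolated peaks. HA-BAZ2B shares stay near 42% from 3 to 100 kb and fall to 14.9% above 1000 kb.

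From 100 kb upward, the share with HA-BAZ2B was lower at each wider step of the gap shown, beginning below the limit that defined isolation. It was 41.6% (39.7 to 43.6%) at gaps of 3 to 10 kb, 42.4% at 10 to 30 kb and 42.9% (41.6 to 44.2%) at 30 to 100 kb. At 100 to 300 kb, outside the isolated set, it was 36.7% (34.7 to 38.7%). Within the set it was 25.1% (20.8 to 29.9%) at 300 to 500 kb, 18.3% (13.0 to 24.6%) at 500 to 1000 kb and 14.9% (7.40 to 25.7%) for the 67 peaks above 1000 kb. Weighted to the widths of the isolated peaks, these 4 shares were 33.8, 24.5, 18.8 and 14.1%, the last with as few as 3 peaks in a width group. The fall within the isolated set depended on the steps chosen. In 3 equal groups of isolated peaks by rising gap, HA-BAZ2B was on 22.5% (17.0 to 28.8%), 25.4% (19.6 to 31.8%) and 18.2% (13.2 to 24.1%). These intervals overlapped, and no trend was tested. Peaks under 3 kb from a neighbour were also low, with 28.1%, and had a median width of 860 bp.

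The WT share did not fall at each of these steps within the isolated set. It was 12.5% (11.1 to 13.9%) at 100 to 300 kb, 7.22% (4.81 to 10.3%) at 300 to 500 kb and 9.14% (5.41 to 14.2%) at 500 to 1000 kb, and 2 of 67 peaks above 1000 kb carried one (2.99%, 0.364 to 10.4%). Median −log10 q of H3K4me3 went down over the same steps of the gap, from 46.9 at 30 to 100 kb to 42.9, 31.8, 26.6 and 24.7. With isolation set at 1000 kb, the odds ratio over the width groups was 0.241 for HA-BAZ2B (0.115 to 0.505; p = 4.57e-05, n = 67) and 0.194 for WT (0.0469 to 0.799; p = 0.0111, Cochran-Mantel-Haenszel test).

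Just inside the 300 kb limit lay peaks at 8p23.1 (chromosome 8, 6263313 to 6264945), with a gap of 300.4 kb, a width of 1633 bp and a fold enrichment of 10.1, and at 5q21.2 (chromosome 5, 102897614 to 102898526), with 301.9 kb, 913 bp and 10.95. Just outside it were 15q13.1 (chromosome 15, 29561036 to 29562406), with 299.98 kb, 1371 bp and 9.996, and 6p23 (chromosome 6, 14777439 to 14777737), with 299.8 kb, 299 bp and 4.71. Of the 5 nearest on either side, the 6p23 peak was the 1 peak with an anti-HA peak, an HA-BAZ2B peak of fold enrichment 7.21. All coordinates are on hg19.

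Isolated peaks had a median gap of 457.7 kb to the nearest neighbour and 905.3 kb to the other side, while the remaining peaks had a median nearest gap of 28.5 kb. The most remote was at 2p12 (chromosome 2, 79739403 to 79740473), with no other H3K4me3 peak within 3.80 Mb. Next came 4q13.1 (chromosome 4, 62065846 to 62067566), alone within 3.07 Mb, and 11p12 (chromosome 11, 40315370 to 40315728), alone within 3.02 Mb. The remaining 2 of the 5 most remote were at 3p12.3 (chromosome 3, 79066986 to 79068851; 2.74 Mb) and 2q22.1 (chromosome 2, 139258854 to 139260225; 2.52 Mb). These 5 peaks were 359 to 1866 bp wide with fold enrichments of 6.73 to 11.5, and neither anti-HA list had a peak on any of them. Neither list had a peak on 76.1% of all isolated peaks. Of the 67 isolated peaks with a gap above 1000 kb, 14.9% carried HA-BAZ2B and 2.99% WT.

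The isolated peaks with the highest H3K4me3 fold enrichment were narrow. The 10 highest had fold enrichments of 15.4 to 18.4 and widths of 469 to 829 bp, and lay on 5 chromosomes. The first was at 8q13.2 (chromosome 8, 70269033 to 70269727), with 18.4, followed by 8q24.13 (chromosome 8, 123256670 to 123257251), with 18.3, and 7q21.13 (chromosome 7, 90558096 to 90558646), with 17.6. A pair that followed each other along 16q21 (chromosome 16, 60010563 to 60011031 and 61952027 to 61952729), 1.94 Mb apart, had 16.6 and 16.5. An HA-BAZ2B peak lay on 1 of the 10, at 11q14.1 (chromosome 11, 78902178 to 78902720; H3K4me3 16.6, HA-BAZ2B 9.74).

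Across the isolated peaks, fold enrichment of H3K4me3 did not order the HA-BAZ2B share. With the isolated peaks in 3 equal groups of rising fold enrichment, 45, 45 and 48 of 209 peaks carried HA-BAZ2B (21.5, 21.5 and 22.97%). The WT share went from 22 of 209 (10.5%, 6.72 to 15.5%) through 17 (8.13%) to 7 (3.35%, 1.36 to 6.78%). Remaining peaks in the same ranges of fold enrichment carried HA-BAZ2B in 35.7, 44.1 and 41.4% of cases and WT in 14.1, 15.0 and 11.6%. In 3 groups by width, HA-BAZ2B was on 10, 46 and 82 of 209 (4.78, 22.01 and 39.2%), and in 3 groups by −log10 q on 10, 34 and 94 (4.78, 16.3 and 44.98%).

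The widest isolated peaks had low fold enrichment. The 5 widest measured 2838 to 2996 bp with fold enrichments of 3.98 to 4.63. They were at 18q12.1 (chromosome 18, 25755369 to 25758364), 6q27 (chromosome 6, 166073917 to 166076888), 9p21.1 (chromosome 9, 29211787 to 29214736), 2q13 (chromosome 2, 111877963 to 111880818) and 4q24 (chromosome 4, 102266947 to 102269784). The 4q24 peak carried an HA-BAZ2B peak of nearly the same extent (102267024 to 102269792, fold enrichment 4.50), and the other 4 carried no anti-HA peak. In the whole group of 1794 to 3988 bp, 44.2% of isolated and 66.9% of remaining peaks carried HA-BAZ2B.

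The 5 isolated peaks of highest −log10 q, from 87.4 to 99.5, all carried HA-BAZ2B. In the wider group with a −log10 q of 70.7 or more, 17 of 20 isolated peaks (85%) and 77.5% of remaining ones did. At 8q22.1 (chromosome 8, 93977327 to 93978452), H3K4me3 had a −log10 q of 99.5 and a fold enrichment of 14.3, and the HA-BAZ2B peak had a fold enrichment of 15.3. This was also the highest HA-BAZ2B value at any isolated peak. At 12p13.2 (chromosome 12, 11323528 to 11324705), the −log10 q was 94.4 and the 2 fold enrichments were 14.4 and 11.6. At 19q11 (chromosome 19, 28283919 to 28285668), with 90.8, they were 7.54 and 7.21, and a WT peak of 7.43 lay there too. At 7p21.1 (chromosome 7, 17338159 to 17339542) and 2p24.2 (chromosome 2, 18741040 to 18742211), the HA-BAZ2B values were 8.72 and 11.2, with no WT peak.

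After 8q22.1, the highest HA-BAZ2B fold enrichments at isolated peaks were at 5p13.2 (chromosome 5, 35617549 to 35618602; HA-BAZ2B 14.1, H3K4me3 13.5), 5q15 (chromosome 5, 93446752 to 93447650; 13.9 and 14.9), 9p12 (chromosome 9, 43133193 to 43134694; 13.5 and 11.6) and 16q23.1 (chromosome 16, 78133221 to 78134286; 13.3 and 12.9). The other 5 of the 10 highest ran from 11.2 to 12.2, at 14q31.3, 1p33, 12p13.2, 1q41 and 6p22.3. Of the 10 sites, 1 had a WT peak, at 14q31.3 (chromosome 14, 88458751 to 88459812), with HA-BAZ2B 12.2 and WT 6.04. A WT peak lay on 24.6% of all isolated peaks with HA-BAZ2B and on 28.8% of all H3K4me3 peaks with HA-BAZ2B. No test was made of these 10 sites. Values of different lists are not scaled to each other and do not measure a difference between them.

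The highest WT fold enrichments at isolated peaks were 9.50 at 1p12 (chromosome 1, 119682608 to 119684052), 8.95 at 14q23.3 (chromosome 14, 66974243 to 66976099), 8.95 at 3p12.2 (chromosome 3, 81809900 to 81811223) and 8.92 at 3p23 (chromosome 3, 31573402 to 31575595). Of the 10 highest, from 8.14 to 9.50, 9 also carried HA-BAZ2B, against 73.9% of all isolated and 86.8% of remaining peaks with WT. The HA-BAZ2B fold enrichments at these 9 were 4.01 to 10.1. The exception was 6p12.3 (chromosome 6, 48794805 to 48795185), with WT 8.43 on an H3K4me3 peak of 381 bp.

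The 12 isolated peaks with WT and no HA-BAZ2B were mostly narrow and of low significance. Their median H3K4me3 width was 436.5 bp and their median −log10 q 7.99, against 1507 bp and 53.1 for the 34 with both, and 1391.5 bp and 47.1 for the 104 with HA-BAZ2B alone. The order was the same among remaining peaks. There the medians were 778 bp and 16.7 with WT alone, 1417 bp and 59.3 with both, and 1302.5 bp and 53.8 with HA-BAZ2B alone. After 6p12.3, the highest WT values among the 12 isolated peaks were at 9p22.2 (chromosome 9, 18393496 to 18393869; 7.54), 1q24.2 (chromosome 1, 168678331 to 168679261; 7.18) and 9q34.3 (chromosome 9, 141121847 to 141122145; 7.01). A member with a strong H3K4me3 peak was at 9p21.3 (chromosome 9, 22446716 to 22448039), with a −log10 q of 62.8, a width of 1324 bp and a WT fold enrichment of 5.53.

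**Figure D4:**
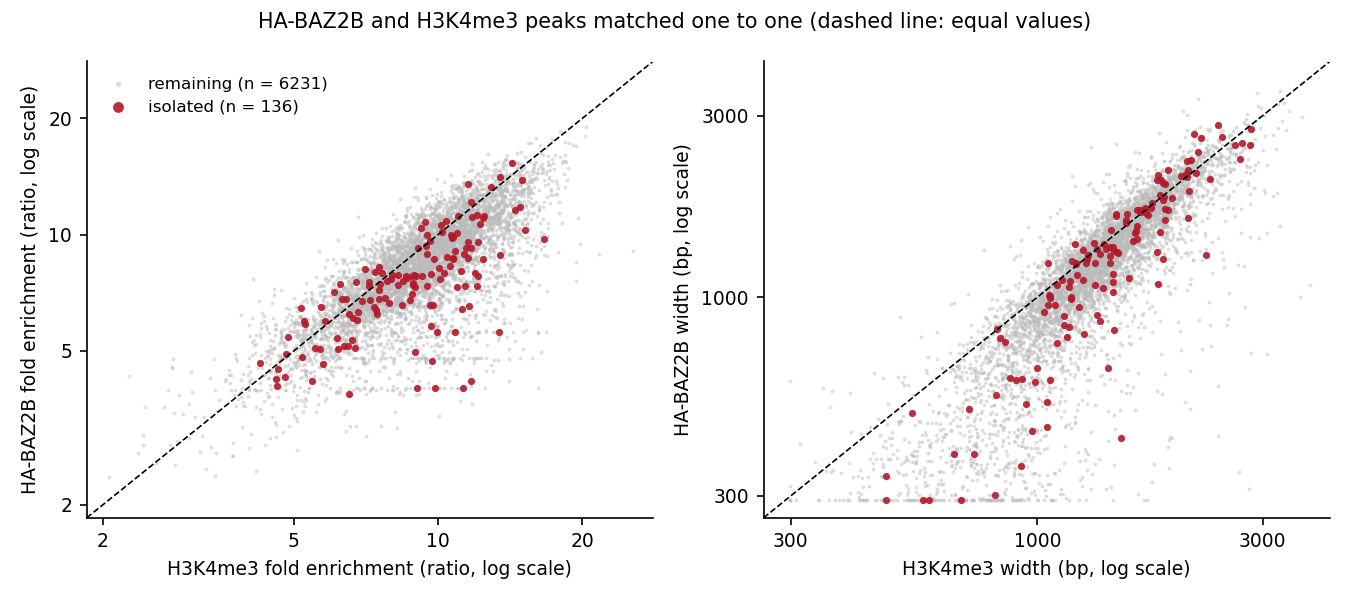
HA-BAZ2B against H3K4me3 peaks that match one to one, by fold enrichment (left, ratio) and width (right, bp), both axes logarithmic, with 136 isolated and 6231 remaining pairs and a dashed line of equal values. Isolated pairs lie within the cloud of the others, with a median HA-BAZ2B fold enrichment of 7.51 against 8.30.

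Where an isolated peak did carry HA-BAZ2B, that peak was slightly lower than elsewhere. Over 136 isolated pairs that matched one to one, the median HA-BAZ2B fold enrichment was 7.51 (interquartile range 6.19 to 8.96), against 8.30 (6.68 to 10.1) over 6231 remaining pairs. At equal H3K4me3 width and fold enrichment, it was 0.928 times as high (95% interval 0.898 to 0.958; log2 difference -0.11, SE 0.024, linear fit over all pairs with robust errors, p = 5.72e-06, n = 136 isolated pairs). With isolation set at 500 kb, 43 isolated pairs were left and the difference did not pass the threshold of 0.05 (log2 -0.087, -0.175 to 0.0012; p = 0.0533, n = 43). At the 300 kb limit with −log10 q of H3K4me3 as a further term, the difference was smaller (log2 -0.073, -0.118 to -0.027; linear fit, p = 0.00183, n = 136). HA-BAZ2B widths had a median of 1285.5 bp at isolated and 1228 bp at remaining peaks, or 0.917 and 0.919 times the H3K4me3 width. In the linear fit with H3K4me3 width and fold enrichment alone, the width difference did not pass (log2 -0.042, -0.103 to 0.018; p = 0.171, n = 136). Its direction turned with −log10 q of H3K4me3 as a further term (0.036).

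Within these isolated pairs the Spearman correlation of HA-BAZ2B with H3K4me3 was 0.68 for fold enrichment and 0.91 for width, and 0.74 and 0.87 in the remaining pairs. Pairs of one list come from the same libraries and are not replicates. Summits lay a median of 107.5 bp apart (27.8 to 354.8 bp) at isolated and 83 bp (27 to 271 bp) at remaining peaks. The 45 isolated WT pairs had a median fold enrichment of 7.01 and a width 0.556 times that of H3K4me3, against 6.47 and 0.501 over 2115 remaining pairs, with no test made.

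**Figure D5:**
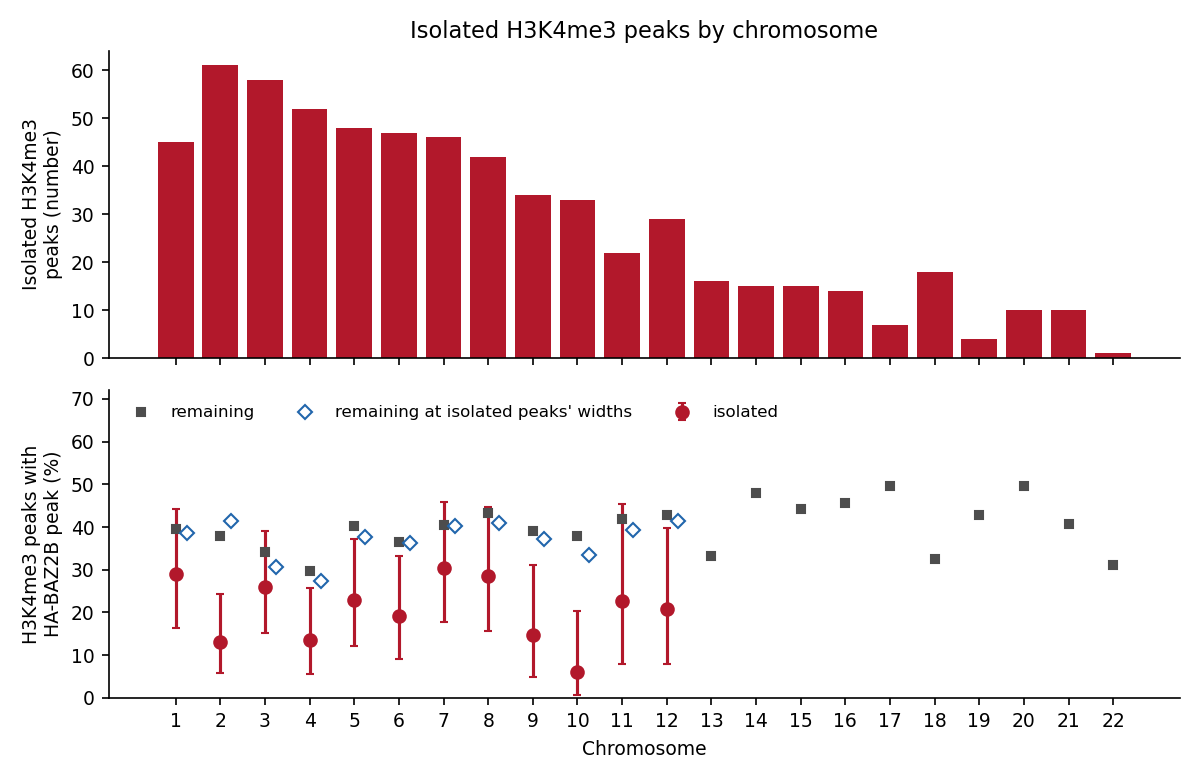
Number of isolated H3K4me3 peaks by chromosome (top) and, for the 12 chromosomes with at least 20 of them, the percent with an HA-BAZ2B peak with exact 95% binomial intervals, beside all remaining peaks and the remaining peaks at the isolated widths (bottom). The isolated share is below the remaining share on 12 of 12 chromosomes.

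Isolated peaks were spread over all the autosomes, with most on the large ones. Chromosome 2 held 61, chromosome 3 held 58 and chromosome 4 held 52, while chromosome 17 held 7, chromosome 19 held 4 and chromosome 22 held 1. As a share of the H3K4me3 peaks of their chromosome they ranged from 0.263% on chromosome 22 and 0.363% on chromosome 19 to 7.23% on chromosome 18 and 7.94% on chromosome 4. On the 12 chromosomes with at least 20, the HA-BAZ2B share ran from 6.06% on chromosome 10 (2 of 33) to 30.4% on chromosome 7 (14 of 46), and that of the remaining peaks from 29.7 to 43.4%. Over all 22 chromosomes it was lower on 19, and higher on chromosome 15 (8 of 15 isolated peaks), chromosome 17 (4 of 7) and chromosome 19 (3 of 4). Chromosome 4 had a WT peak on 0 of its 52 isolated peaks, which allows a share of up to 5.77% (3 counts of 52, a limit for counting error that is not the exact interval used for the other shares), against 7.46% of its remaining ones. With width strata within each chromosome, the odds ratio was 0.438 for HA-BAZ2B (0.356 to 0.538; Cochran-Mantel-Haenszel p = 6.95e-16, n = 627) and 0.576 for WT (0.423 to 0.784; p = 0.000373).

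The darkest Giemsa bands, which are gene-poor, held a larger share of the isolated than of the remaining peaks. Members were chosen by their distance to other peaks, so their spread over bands is given as a description. The darkest bands make up 16.0% of chromosomes 1 to 22 and held 169 isolated peaks (27.0%) and 4.87% of the remaining ones. Light bands make up 42.4% and held 214 (34.1%) and 61.9%. The HA-BAZ2B share of isolated peaks was 14.2% (9.32 to 20.4%) in the darkest and 23.4% (17.9 to 29.6%) in the light bands, and that of remaining peaks 36.8 and 40.7%. In bands of medium stain (gpos50) it was 28 of 82 (34.1%, 24.0 to 45.4%), against 42.7% of the remaining peaks, and in centromeric bands 3 of 8 (37.5%, 8.52 to 75.5%), against 42.3%. The WT share of isolated peaks was likewise lower in the darkest bands (8 of 169, 4.73%) than in the light ones (20 of 214, 9.35%). In bands of medium stain a WT peak lay on 6 of 82 (7.32%), and in centromeric bands on 4 of 8 (50%). With width strata within each kind of band, an alternative added after the values had been seen, the odds ratio was 0.420 (0.341 to 0.517; p = 6.30e-17, n = 627) for HA-BAZ2B and 0.531 (0.390 to 0.724; p = 4.33e-05) for WT.

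Many isolated peaks followed another isolated one: 333 of the 627 were in 133 runs of 2 to 8 that followed each other along a chromosome, and 294 were single. The longest run, of 8 peaks, spanned 5.74 Mb of 7q21.11 (chromosome 7, 79081344 to 84816486), with HA-BAZ2B on 3 of them. A run of 5 from 3p12.3 to 3p12.1 (chromosome 3, 79066986 to 85008801) spanned 5.94 Mb, with HA-BAZ2B and WT each on 1. Another run of 5, at 3p14.2 (chromosome 3, 59035280 to 62860574), had neither. HA-BAZ2B was on 69 of the 333 in runs (20.7%) and on 69 of the 294 single ones (23.5%).

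By the choice of members, the stretches around isolated peaks hold no other listed H3K4me3 peak. Positions within 300 kb of an isolated peak make up 12.5% of chromosomes 1 to 22. Of 6592 HA-BAZ2B peaks on these chromosomes, 69 overlapped no H3K4me3 peak, and 2 of the 69 lay in these stretches. Both were beside the same isolated peak at 3p24.3, at distances of 36.9 and 102.0 kb and with fold enrichments of 6.41 and 4.01. With so few HA-BAZ2B peaks outside H3K4me3 anywhere, the count of 2 is not read as a trait of these stretches. Of 2328 WT peaks, 146 overlapped no H3K4me3 peak, and 13 of the 146 lay in these stretches. The 3 highest of these WT peaks were on chromosome 9 (67320356 to 67320987, fold enrichment 15.3, and 66970976 to 66971474, 14.8) and chromosome 2 (109815786 to 109816301, 13.4).

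Isolation refers to the deposited list, from which peaks of a single replicate had been removed. Peak numbers in the names rise along each chromosome, so a missing number between an isolated peak and its listed neighbour stands for a peak of the source library that did not recur or was left out otherwise. No number was missing on either side of 262 isolated peaks (41.8%), against 66.8% of the remaining peaks. These shares cover flanks of unlike length, since the median nearest gap was 457.7 kb for isolated and 28.5 kb for remaining peaks. The other 365 isolated peaks had between 1 and 6 missing in both flanks together. Among the 262, HA-BAZ2B was on 52 (19.8%, 15.2 to 25.2%) and WT on 17 (6.49%, 3.82 to 10.2%). Among the 365, it was on 86 (23.6%, 19.3 to 28.3%) and WT on 29 (7.95%). A comparison limited to the 262, added after the values had been seen, gave an odds ratio over the width groups of 0.374 for HA-BAZ2B (0.269 to 0.519; p = 1.20e-09, n = 262) and 0.461 for WT (0.279 to 0.761; p = 0.00203). The centromere lay between 16 isolated peaks and a listed neighbour.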

How the data were processed

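CUT&Tag peak lists of 3 groups (HA-BAZ2B, WT and H3K4me3, 3 replicates each) were analysed. Per the submitters' processing notes, Bowtie2 2.4.5, Picard, SAMtools 1.15.1, bedtools and MACS2 2.1.4 were used with hg19 and dm6. Caller settings, the control used and any scaling to the Drosophila spike-in: not given in the sources used here. By the descriptions in the labels, each deposited list keeps the peaks of the largest replicate file that recur in at least 2 replicates. The deposited fold enrichment is a ratio over the caller's background, and significance is the deposited −log10 q of each peak, as the authors' caller wrote it. The lists give no reads, so depth is unknown.

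Gaps were counted in bp between rows, and an overlap needed 1 bp. For the main tests, widths were cut into 10 groups over all H3K4me3 peaks, or over those with HA-BAZ2B where only these were compared. Strata of width with −log10 q used 5 groups of each, and strata within chromosomes or bands used 5 width groups. Odds ratios and fits came from statsmodels 0.14.6 (two-sided), with Python 3.11.15, scipy 1.17.1 and pandas 2.3.3, and both kinds were tested on simulated data. Bands came from circlize 0.4.16 and chromosome lengths from GenomeInfoDb 1.38.1, both hg19. Named peaks are the highest by H3K4me3, HA-BAZ2B or WT fold enrichment (10 each), the 5 widest, most significant and most remote, up to 10 with WT and no HA-BAZ2B, and 5 on either side of the limit. Gene annotation and sequence were not used here, since the reference tables are on another build. The members, tests and alternatives were chosen with earlier results of these data known.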

Additional observations from a re-analysis of the deposited data

How the results depend on the processing

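The lower share at isolated peaks kept its direction and passed the threshold of 0.05 in 18 of 18 alternatives for HA-BAZ2B (odds ratio 0.241 to 0.599) and in 18 of 18 for WT (0.194 to 0.695). These varied the gap, the overlap, the significance required of a peak, the matching and the bands used. With each of the 22 chromosomes left out in turn, the odds ratios ran from 0.379 to 0.428 and from 0.467 to 0.540. The WT share among isolated peaks with HA-BAZ2B passed in 1 of 18 alternatives, with anti-HA peaks of −log10 q of at least 5 (odds ratio 0.640, Cochran-Mantel-Haenszel p = 0.0451, n = 130 isolated peaks). The lower HA-BAZ2B fold enrichment did not pass with a gap above 500 kb (log2 -0.087, p = 0.0533, n = 43), which left fewer pairs. The HA-BAZ2B width difference turned its direction with a gap above 500 kb (log2 0.0096), without covariates (0.058) and with −log10 q added (0.036), and passed in none of its 6 alternatives; the cause was not tested. The ratio of the HA-BAZ2B and WT odds ratios was 0.847 in strata of width and −log10 q (p = 0.303, n = 16390 peaks). No paired analysis was possible because the deposited lists hold no values per replicate, and for the same reason no replicate could be left out. Depth is unknown, and subsets of isolated peaks are small.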

Other observations

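A comparison chosen after the values had been seen concerns sharp peaks. Of the 10 isolated peaks with a fold enrichment of at least 15.4 and a width of 469 to 829 bp, 1 carried HA-BAZ2B (10%, exact 95% binomial interval 0.253 to 44.5%). Of 209 remaining H3K4me3 peaks in the same range of both values, 89 did (42.6%, 35.8 to 49.6%). The intervals overlap, and the difference was not tested.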
